A study of Mus musculus with 3 samples.

Results

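The genes described here carry out solute and water transport in the mature kidney tubule, and their signals were read in the ureteric duct of the mouse embryo, long before those tubules work. The set was fixed by name: 35 genes of the proximal tubule, thick ascending limb, distal tubule and collecting duct, taken from 19938 genes with a probe set of their own. All 35 were measured. The samples were 3 preparations of GFP-positive ureteric duct cells from CD-1 embryos at 10.5 days post coitum (Theiler stage 18). The embryos carried the transgene Tg(Hoxb7-EGFP)33Cos, in which the Hoxb7 promoter drives the fluorescent protein, so the sort selected cells by the activity of that promoter. The labels give 1 duct per sample, name the source as ureteric trunk, and leave the sex unknown. The series used here has this single group, with no treatment given, so each gene was compared only with the background of its own array. The labels do not say whether the samples came from separate embryos, and so a p-value here covers no more than the sample-to-sample spread, part of which may be technical.

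In the adult kidney the nephron reclaims most of the filtered salt, glucose, phosphate and protein in the proximal tubule, and the thick limb and distal tubule take up further salt, calcium and magnesium. The collecting duct descends from the ureteric bud, an outgrowth of the nephric duct. Its principal cells reabsorb sodium under aldosterone and water under vasopressin, and its intercalated cells secrete acid or base. The nephron segments descend instead from the metanephric mesenchyme. Many of these genes are known as markers of differentiated tubule cells, while some, such as Lrp2 and Dab2, are also known in other cells.

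Values are log2 signals as deposited, and "one value" marks a gene whose value was identical on all 3 arrays, so that no spread can be given. The receptor genes of smell and pheromone sensing (olfactory and vomeronasal), used by sensory neurons, supplied the background with 1210 probe sets. Their 95th percentile served as each array's cutoff, at 5.70, 5.73 and 5.71, with a mean of 5.71. A gene was called above background when limma's one-sided test gave a Benjamini-Hochberg adjusted p under 0.05 over all named probe sets. By this rule 53 of 1194 receptor genes (4.44%) were also called. All 9 duct markers were called, with means between 6.96 and 11.71 and a median of 7.33, led by Calb1 at 11.71 ± 0.03 and Gata3 at 9.43 ± 0.20 (SD, n = 3). All 8 endothelial markers were called as well, with means between 6.05 and 10.07 and a median of 7.78, led by Emcn at 10.07 ± 0.69 and Cdh5 at 9.10 ± 0.58. The sorted samples thus held RNA of both kinds of marker. Markers of other cells were called in 3 of 3 cases for podocytes, 3 of 7 for visceral endoderm and 1 of 6 for macrophages. For red cells and mesenchyme 0 of 7 each were called, and for all genes the share was 56.1%. At the 99th percentile of the receptors all 9 duct, 7 endothelial and 0 podocyte markers were called, against 36.1% of all genes. A marker without a call was not always low. The red cell genes Hbb-y and Hba-x read 10.02 and 8.89 on array 1. Hba-x and the mesenchyme gene Pdgfra were above the cutoff on every array. In such bulk samples, fewer cells of a type and less RNA per cell cannot be told apart.

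Of the 35 transport genes, 14 (40%) lay above background and 21 did not, against 56.1% of all genes. Their median signal was 5.54, against 6.04 over all genes. The genes that stood well clear of the cutoff were Lrp2, the endocytic receptor megalin, Dab2, its cytoplasmic adaptor, Atp1b1, the beta subunit of the sodium pump, and Hsd11b2, which inactivates glucocorticoids in aldosterone target cells. These 4 genes (11.4%) were still called with the cutoff raised by 1 log2 unit, where 28.3% of all genes were. At the 99th percentile of the receptors, at a mean of 6.38, Aqp3 joined them, which made 5 genes (14.3%) against 36.1% of all genes. The other 9 called genes lay between 5.78 and 6.41, within 0.70 log2 units of the cutoff. None of the 21 genes without a call exceeded the cutoff on any array.

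**Figure D1:**
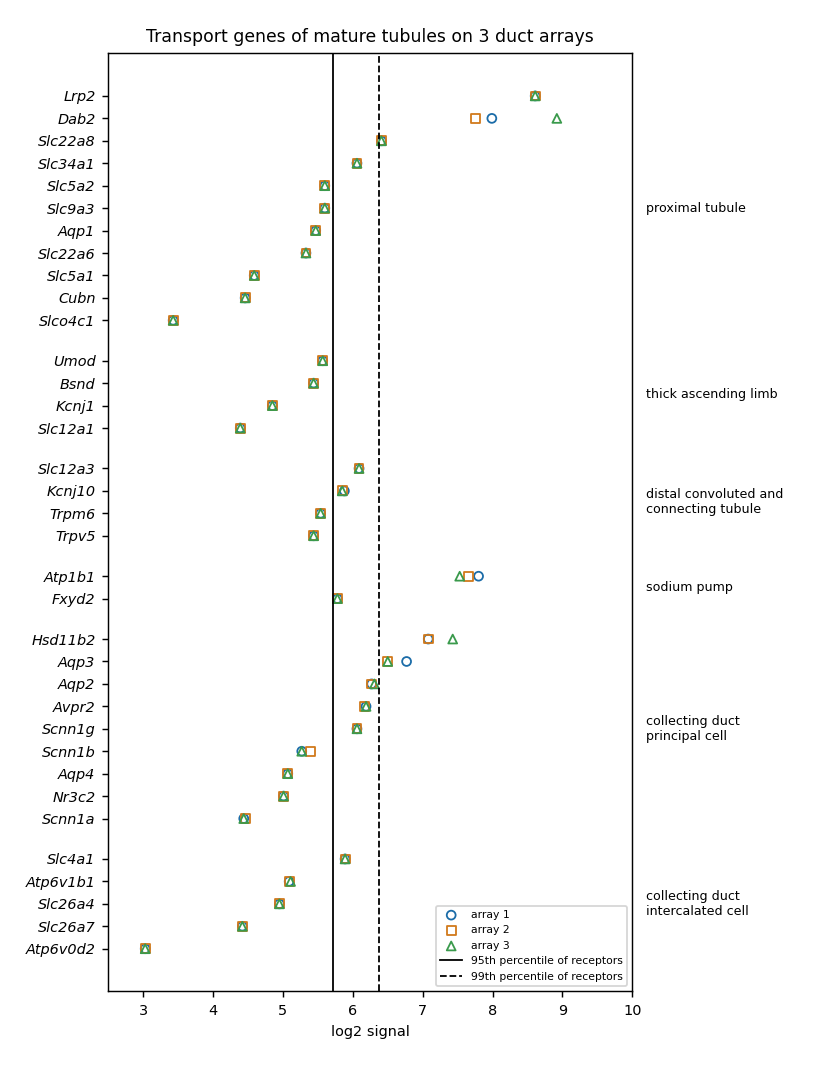
Log2 signal (x axis) of each transport gene on arrays 1, 2 and 3 (circle, square and triangle), with genes grouped by segment down the page and sorted by mean within it. The solid line is the mean cutoff of 5.71 and the dashed line the mean 99th percentile of 6.38. Lrp2, Dab2, Atp1b1 and Hsd11b2 lie to the right of both lines on every array, and all 4 thick ascending limb genes lie left of the solid line.

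Ties limit the precision of these values. Of the 35 genes, 25 held one value on all arrays, against 10129 of 19938 genes (50.8%). In 20 of the 35, that set of values was also held by at least 1 other probe set of the array, against 8273 genes overall (41.5%). Bsnd and Trpv5 both read 5.44, a value held by 103 probe sets beside each gene's own. Among called genes, Fxyd2 shared its value with 80 other probe sets, Slc12a3 with 33, Slc34a1 with 17 and Slc4a1 with 5. Lrp2, Slc22a8 and Scnn1g held one value that no other probe set had. For a tied gene the fitted spread comes from the cutoffs and from moderation alone, so its p is too small. Aqp2, Aqp3, Hsd11b2 and Kcnj10 held 2 distinct values, so their SD rests on a single differing array. Ties also entered the moderation that all genes share, so the p of untied genes is affected too. Whether a shared value is specific to its gene was not tested.

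RefSeq promoter windows of the GRCm38.p6 build, from 250 bases before to 50 after a start site, were matched by symbol for 26 of the 35 genes, with 27 windows since Dab2 has a pair. Promoters rich in CpG dinucleotides are typical of broadly used genes, and promoters poor in CpG of genes restricted to one tissue. The windows of the transport genes held a median of 8 CpG, against 15 over 19177 windows of all measured genes. At least 10 CpG were found in 11 of 27 windows (40.7%), against 60.7% of all windows. Within the set, the called genes had 6 of 12 such windows (median 13), and the genes without a call 5 of 15 (median 6). The windows of called genes cover 11 of the 14, with both of Dab2 counted, since Hsd11b2, Fxyd2 and Slc4a1 had none. Over all genes, the share was 77.9% for those above background and 35.7% for those not above it. The following stretches of 250 bases before the start site, with each CpG in capitals, show the range from Atp1b1, with 24, Lrp2, with 18, and Aqp3, with 14, to Aqp2, with 8, Slc12a1, with 4, and Umod, with 0. They lie at chr1:164458356-164458605 (minus strand), chr2:69586030-69586279 (minus strand), chr4:41098184-41098433 (minus strand), chr15:99578806-99579055 (plus strand), chr2:125152350-125152599 (plus strand) and chr7:119479263-119479512 (minus strand).
Atp1b1: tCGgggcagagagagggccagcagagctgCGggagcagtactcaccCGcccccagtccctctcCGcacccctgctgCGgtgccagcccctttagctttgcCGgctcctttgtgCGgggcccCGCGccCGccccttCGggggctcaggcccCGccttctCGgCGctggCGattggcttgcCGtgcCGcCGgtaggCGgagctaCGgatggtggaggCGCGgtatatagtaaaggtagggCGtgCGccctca
Lrp2: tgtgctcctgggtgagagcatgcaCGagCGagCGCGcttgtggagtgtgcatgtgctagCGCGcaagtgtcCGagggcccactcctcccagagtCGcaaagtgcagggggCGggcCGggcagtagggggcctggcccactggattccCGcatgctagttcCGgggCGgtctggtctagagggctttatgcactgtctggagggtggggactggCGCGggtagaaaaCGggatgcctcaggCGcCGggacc
Aqp3: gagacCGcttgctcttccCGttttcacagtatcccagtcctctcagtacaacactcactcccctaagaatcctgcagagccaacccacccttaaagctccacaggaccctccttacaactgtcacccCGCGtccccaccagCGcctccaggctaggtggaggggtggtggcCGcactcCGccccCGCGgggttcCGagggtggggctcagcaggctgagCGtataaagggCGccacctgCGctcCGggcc
Aqp2: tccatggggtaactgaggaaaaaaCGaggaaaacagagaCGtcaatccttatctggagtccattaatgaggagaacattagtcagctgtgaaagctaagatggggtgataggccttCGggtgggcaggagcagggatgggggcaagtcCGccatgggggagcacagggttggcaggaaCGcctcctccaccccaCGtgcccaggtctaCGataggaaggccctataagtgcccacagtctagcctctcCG
Slc12a1: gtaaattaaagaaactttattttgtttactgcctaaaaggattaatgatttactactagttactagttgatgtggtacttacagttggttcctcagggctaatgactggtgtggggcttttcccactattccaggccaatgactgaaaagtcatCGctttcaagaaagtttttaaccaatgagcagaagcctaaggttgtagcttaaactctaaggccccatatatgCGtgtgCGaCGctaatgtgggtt
Umod: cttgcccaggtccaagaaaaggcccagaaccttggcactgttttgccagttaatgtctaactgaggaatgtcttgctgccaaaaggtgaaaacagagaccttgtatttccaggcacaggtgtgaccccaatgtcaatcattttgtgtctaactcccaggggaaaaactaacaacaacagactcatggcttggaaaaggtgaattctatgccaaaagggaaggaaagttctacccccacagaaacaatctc
Single genes departed from these shares, and a correlation of CpG count with signal was not tested. Slco4c1 and Slc9a3 had 21 and 25 CpG in their whole windows and no call, while Slc22a8 and Avpr2 had 1 each and were called. The motif TATAAA, searched on both strands, was in 6 of the 27 windows (22.2%), against 11.5% of all windows, and such a match is a description of the letters only.

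**Figure D2:**
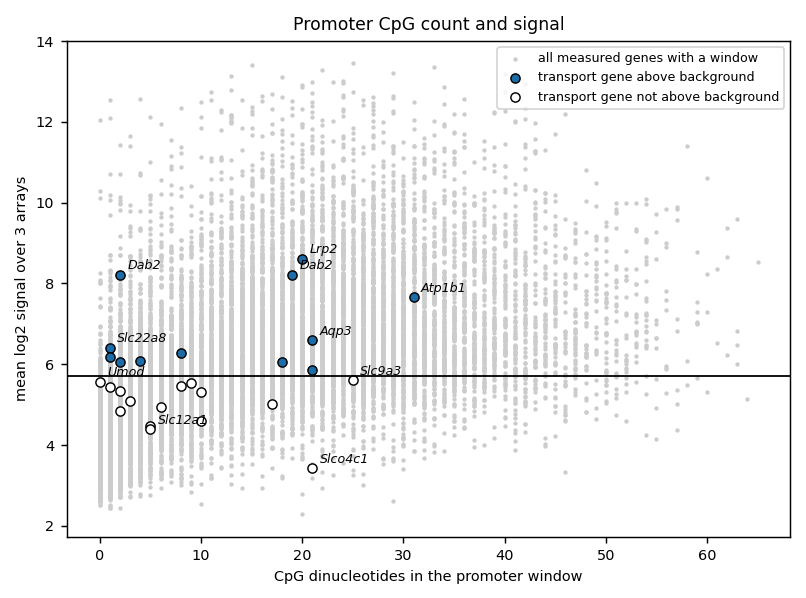
Number of CpG dinucleotides in the promoter window of 300 bases (x axis) and mean log2 signal over 3 arrays (y axis), for all measured genes with a window (grey) and for the transport genes above background (blue) or not (white). The line is the mean cutoff of 5.71. Dab2 appears at each of its windows, with 2 and 19 CpG.

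Of the 11 proximal tubule genes, 4 were called (36.4%), against 56.1% of all genes. The brightest belonged to the uptake of filtered protein. Lrp2 read 8.61 on each array (one value), which exceeded the mean cutoff by 2.90 log2 units, and 0 of the 1210 receptor probe sets had a higher mean. Dab2 read 7.99, 7.76 and 8.92 on arrays 1, 2 and 3, for a mean of 8.22 ± 0.61 (SD, n = 3; limma, Benjamini-Hochberg adjusted p = 0.00273). Array 3 was the highest for Dab2 by nearly a log2 unit, and all arrays were well above the cutoff. A second probe set for Dab2 read 3.39 on average, far below it, so the probe sets disagree and the call rests on the brighter. Cubn, the receptor that binds megalin at the brush border, read 4.46 (one value), and 440 receptor probe sets were higher. The partners of protein uptake in the companion list were both called: Amn, which brings cubilin to the membrane, read 6.57 (one value), and the endosomal chloride transporter gene Clcn5 read 8.03, 8.03 and 7.63.

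The endocytic genes are also known in other cells, and so markers of these were read beside them. Dab2 is known in macrophages, endothelium and visceral endoderm, and Lrp2, Cubn and Amn in visceral endoderm. The mean over 8 endothelial markers was 8.11, 7.42 and 8.13 on arrays 1, 2 and 3, lowest on array 2, as Dab2 was. On arrays 1 and 3 that mean was nearly equal, whereas Dab2 read 7.99 and 8.92. The macrophage markers averaged 5.03, 5.18 and 5.18, and 1 of the 6 was called, Cx3cr1 at 6.54 (one value). Cd68 read 5.71, 6.60 and 6.60, above the cutoff on every array without a call, while Adgre1, Csf1r, Ptprc and Fcer1g read 4.09, 4.65, 4.16 and 5.03, each with one value below it. The visceral endoderm list includes Amn, so its count is not independent of the protein uptake genes. Besides Amn, Apoa1 and Apoa4 were called, at 6.34 and 6.01 (one value each), while Afp at 4.91, Ttr at 5.49 ± 0.01, Apob at 4.80 and Rbp4 at 5.11 ± 0.24 were not. The part of these cells in the Dab2 signal was not tested.

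**Figure D3:**
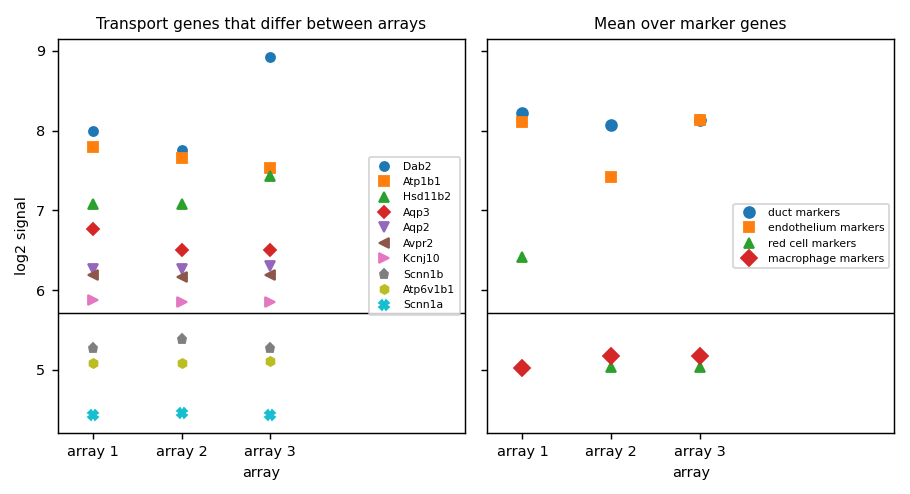
Log2 signal (y axis) on each array of the 10 transport genes whose value differed between arrays (left) and the mean over each marker list on the same arrays (right), with the mean cutoff as a line. Dab2 spans 7.76 to 8.92, and the endothelial mean is 7.42 on array 2 against 8.11 and 8.13 on the others.

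The solute carriers and Aqp1 lay no more than 0.70 log2 units above the mean cutoff. Slc22a8, an exchanger of organic anions at the basolateral side, read 6.41 (one value), with 11 receptor probe sets above it. Slc34a1, the sodium-phosphate cotransporter of the brush border, read 6.06 (one value), with 27 above. Neither was called at the 99th percentile. Slc22a8 is a neighbour of Slc22a6 on chromosome 19, with 0 protein-coding genes between them. The glucose carriers Slc5a2 and Slc5a1 read 5.60 and 4.59, the sodium-proton exchanger gene Slc9a3 5.60, the water channel gene Aqp1 5.47, and Slc22a6, partner of Slc22a8 in organic anion uptake, 5.33, each with one value. Slco4c1, an organic anion carrier, had the lowest signal of the segment at 3.43 (one value), and 916 of 1210 receptor probe sets were higher. Other proximal transport genes, from a companion list, were called in 8 of 17 cases (47.1%), against 56.1% of all genes. The lowest of them was the sulfate carrier gene Slc13a1 at 3.43 (one value). Only Clcn5 and Amn of that list were called at the 99th percentile.

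No thick ascending limb gene was called, 0 of 4, against 56.1% of all genes. Slc12a1, the sodium-potassium-chloride cotransporter NKCC2 that loop diuretics block, read 4.39, and 472 receptor probe sets were higher. Kcnj1, the channel that returns potassium to the lumen, read 4.85. Bsnd, a subunit of the basolateral chloride channels, read 5.44, and Umod, the secreted protein uromodulin, 5.57. Each of the 4 held one value. The broadly used relative of Slc12a1, Slc12a2 (NKCC1), read 8.86, 8.86 and 9.11 and was above background (limma, Benjamini-Hochberg adjusted p = 3.39e-05). Probe sets differ in affinity, so each is set against background and not against the other.

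In the distal convoluted and connecting tubule, 2 of 4 genes were called (50%), against 56.1% of all genes. Slc12a3, the thiazide-sensitive sodium-chloride cotransporter, read 6.09 (one value), and Kcnj10, a basolateral potassium channel, read 5.88, 5.85 and 5.85. Both lay between the 95th and 99th percentiles of the receptors. Without array 3 Kcnj10 was not called, in a fit that gave all genes one spread, while its distance stayed at 0.15. The epithelial channels for magnesium, Trpm6, and calcium, Trpv5, read 5.54 and 5.44 (one value each), below the cutoff. A companion list of further thick limb and distal genes was called in 13 of 17 cases (76.5%), against 56.1% of all genes. At the 99th percentile 9 of the list were called (52.9%), against 36.1% of all genes. The list was led by the calcium buffer gene Calb1 at 11.71 ± 0.03, which is also a duct marker. Next came Atp2b1, a calcium pump of the plasma membrane, at 9.98 (one value). The tight junction gene Cldn16 was its lowest at 4.36 (one value). Casr, Egf and Pvalb were the others without a call, at 5.41, 5.70 and 5.42. Whether the called genes of this list are specific to these segments was not tested, so its share is not a reading of the segments.

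Both sodium pump genes were called, against 56.1% of all genes. At the 99th percentile only Atp1b1 was, against 36.1% of all genes. Atp1b1 read 7.80, 7.66 and 7.53 on arrays 1, 2 and 3, 1.95 log2 units above the mean cutoff (SD 0.13, n = 3; limma, Benjamini-Hochberg adjusted p = 0.000103). A single receptor probe set had a higher mean. Fxyd2, the regulatory gamma subunit of the kidney pump, read 5.78 (one value), only 0.07 above the cutoff, with 53 receptor probe sets higher. Besides the stricter cutoffs, its call ended with olfactory receptors alone as background, without array 1, without array 3, and when tied probe sets were given the spread of untied ones. Of other pump genes 5 of 9 were called (55.6%), against 56.1% of all genes, led by the beta subunit gene Atp1b3 at 8.15 ± 0.02 and by Fxyd6 at 6.81 (one value). Atp1a4, the alpha subunit of sperm, read 4.49.

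Of the 9 principal cell genes, 5 were called (55.6%), close to the 56.1% of all genes. They were Hsd11b2, Scnn1g, Aqp2, Aqp3 and Avpr2. Hsd11b2 read 7.08, 7.08 and 7.43 (mean 7.20 ± 0.20, SD, n = 3; limma, Benjamini-Hochberg adjusted p = 0.000577), with 3 receptor probe sets above it. Array 3 was the highest, and the other arrays were tied. Nr3c2, the mineralocorticoid receptor whose ligand selectivity Hsd11b2 guards, read 5.01 (one value), a value held by 115 other probe sets, and 209 receptor probe sets were higher. The epithelial sodium channel has alpha, beta and gamma subunits. Scnn1a, the alpha subunit gene, read 4.44, 4.46 and 4.44, and Scnn1b, the beta subunit gene, 5.27, 5.39 and 5.27, all below the cutoff. Scnn1g, the gamma subunit gene, read 6.06 (one value) and was called, but not at the 99th percentile. Scnn1b and Scnn1g are neighbours on chromosome 7 with 0 protein-coding genes between them.

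Among the water channels, Aqp3, at the basolateral side, read 6.77, 6.50 and 6.50, with array 1 the highest and the others tied (mean 6.59 ± 0.16, SD, n = 3; limma, Benjamini-Hochberg adjusted p = 0.00147). It had 8 receptor probe sets above it. Aqp2, the channel that vasopressin moves to the apical membrane, read 6.27, 6.27 and 6.31, and its receptor gene Avpr2 read 6.19, 6.17 and 6.19. Both were called, with 15 and 20 receptor probe sets above them, and neither was called at the 99th percentile. Aqp4, the other basolateral channel, read 5.07 (one value), below the cutoff. Outside the set, other aquaporins were called in 4 of 7 cases (57.1%), against the same 56.1% of all genes, led by Aqp5 at 6.81 (one value) and Aqp11 at 6.66 ± 0.26, with Aqp9 lowest at 4.74. Companion genes of mineralocorticoid and vasopressin signalling were called in 4 of 8 cases (50%), also near that share. The channel-activating protease gene Prss8 read 7.25 ± 0.19 and the ubiquitin ligase gene Nedd4l, which removes the sodium channel from the membrane, 7.05 ± 0.28. The chloride channel gene Cftr was lowest at 3.85 (one value).

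Of the 5 intercalated cell genes, 1 was called (20%), against 56.1% of all genes. That gene was Slc4a1, the chloride-bicarbonate exchanger of acid-secreting cells and of red cells, at 5.89 (one value), 0.18 above the mean cutoff and with 43 receptor probe sets higher. Without array 3 it was not called, in a fit that gave all genes one spread, while its distance stayed at 0.18. The embryonic globin gene Hbb-y read 10.02, 5.31 and 5.45 on arrays 1, 2 and 3, and the mean over 7 red cell markers was 6.42, 5.04 and 5.04. Slc4a1 is tied and shares its value with other probe sets, so its lack of change between arrays says nothing about its source, and the part of red cells in its signal was not tested. Slc26a4, the pendrin exchanger of base-secreting cells, read 4.95, and Slc26a7, a chloride-bicarbonate exchanger, 4.42 (one value each). The proton pump subunit genes of this cell type, Atp6v1b1 and Atp6v0d2, read 5.10 ± 0.01 and 3.03 (one value), and 1103 receptor probe sets were higher than Atp6v0d2. At the 99th percentile 36.1% of all genes were called. In a companion list of further intercalated cell genes, 3 of 13 were called (23.1%) and 0 at the 99th percentile. Its highest were the carbonic anhydrase genes Car2 at 6.05 ± 0.28, which was not called, and Car12 at 6.02 ± 0.03, and its lowest Atp6v1g3 at 3.74.

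The broadly used subunits of the same proton pump, found in lysosomes of most cells, were called in 15 of 15 cases. All 15 passed at the 99th percentile too. Over all genes the shares were 56.1% and 36.1%. The B2 subunit gene Atp6v1b2, the broad counterpart of Atp6v1b1, read 7.94, 7.68 and 7.39, and Atp6v0d1, the broad counterpart of Atp6v0d2, 7.62, 7.28 and 7.56. Each counterpart was above the cutoff on every array, and each kidney form was below it on every array. Here too probe sets differ in affinity, so each is set against background only. The one value of Atp6v0d2 was shared with 32 other probe sets. The highest of the list were Atp6v1g1 at 10.25 ± 0.49 and Atp6v1f at 9.48 ± 0.40, and the lowest Atp6ap2 at 6.67 ± 0.03. Broadly used carriers of nutrients and ions were likewise called in 16 of 16 cases, 12 of them at the 99th percentile. The amino acid carriers Slc38a2 at 10.47 ± 0.14 and Slc38a1 at 9.51 (one value) were the highest. The glucose carrier gene Slc2a1 read 10.22, 8.68 and 9.38, and Slc4a2, the broadly used relative of Slc4a1, 6.29, 6.16 and 6.16. The potassium-chloride cotransporter gene Slc12a7 was the lowest at 6.04 (one value).

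**Figure D4:**
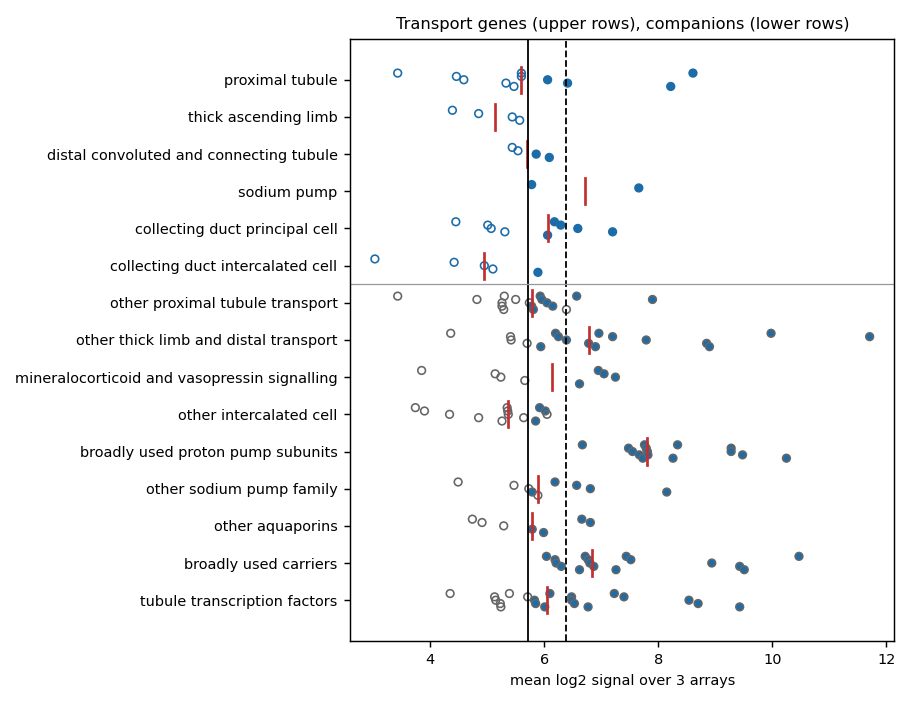
Mean log2 signal over 3 arrays (x axis) of each gene, by list, with transport genes by segment in the upper rows (blue outlines) and companion lists in the lower rows (grey outlines). Filled points were above background, red bars are list medians, and the solid and dashed lines are the mean 95th and 99th percentiles of the receptors. The broadly used pump subunits, with a median of 7.81, and the broadly used carriers, with a median of 6.83, lie wholly right of the solid line, while the intercalated cell genes have a median of 4.95.

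Transcription factors of tubule segments were called in 13 of 20 cases (65%), against 56.1% of all genes. At the 99th percentile 7 were called (35%), against 36.1% of all genes. The highest were Gata3 at 9.43 ± 0.20 and Tfap2b at 8.70 ± 0.16. Tfcp2l1, a regulator of principal and intercalated cells, read 7.56, 7.30 and 6.82, above the cutoff on every array (limma, Benjamini-Hochberg adjusted p = 0.00275). Foxi1, required for intercalated cells, read 5.23 and Elf5, a factor of principal cells, 5.24, each with one value below the cutoff. Hnf4a, a proximal tubule factor, read 5.85 (one value), 0.14 above the mean cutoff, and its relative Hnf4g was lowest at 4.35. Over all 9 companion lists, 81 of 122 measured genes were called (66.4%) and 52 at the 99th percentile (42.6%). Of all genes, 56.1% and 36.1% were.

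**Figure D5:**
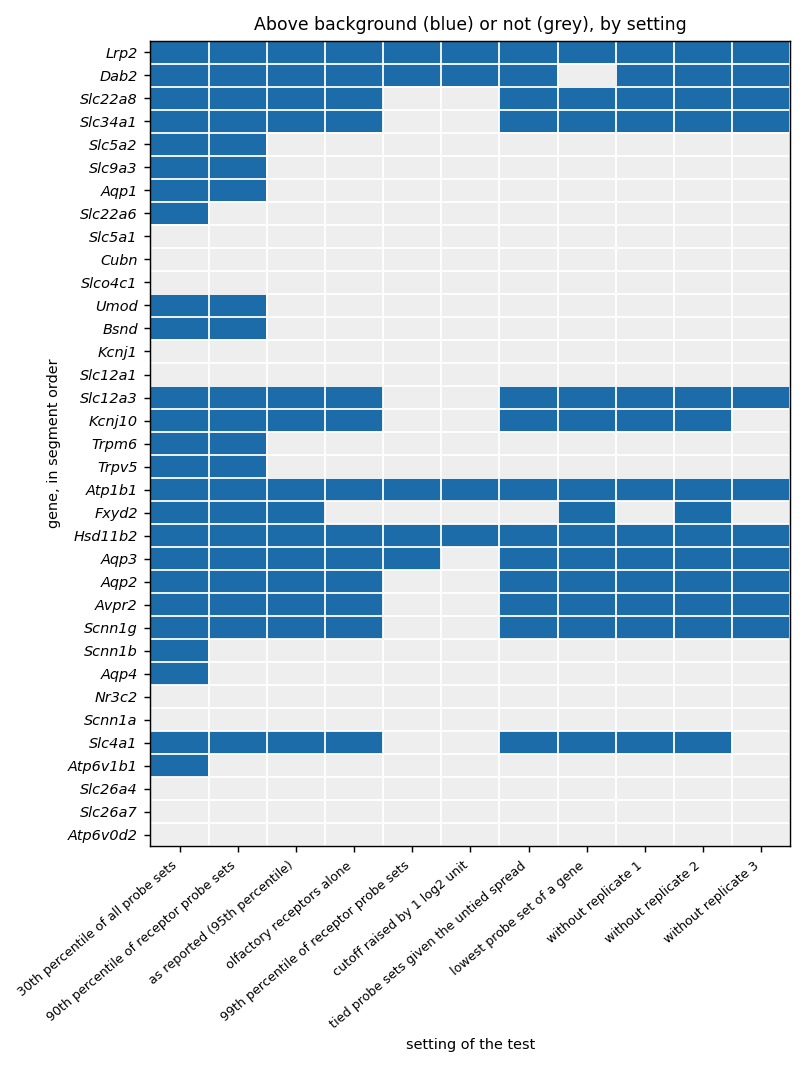
Each row is a transport gene, in segment order, and each column a setting of the test, from the most lenient cutoff to the strictest and then the other alternatives. Blue marks a gene above background and grey one that was not. Lrp2, Atp1b1 and Hsd11b2 are blue in every column and 10 genes are grey in every column.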

How the data were processed

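The deposited table holds log2 values that the authors made from 1 mouse Affymetrix array per sample. The log2 scale was read from their range, 1.9 to 14.2, and array medians of 5.85, 5.9 and 5.86. The tool was Affymetrix Expression Console, per the submitters' processing notes, with its algorithm and background correction not given in the sources used here. RNA was amplified in 1 round, per the labels' protocols. Of 35557 probe sets, the platform annotation gave 21789 a single symbol and 1621 several, and 12147 were unnamed here. By Entrez number 21698 matched the GRCm38.p6 gene table. Where a gene had several probe sets, the one with the highest mean stood for it.

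The distance of each value from its array's cutoff entered an intercept-only model (limma 3.58.1, moderated by empirical Bayes with 1.13 prior degrees of freedom, under R 4.3.3), with a one-sided test over 21789 probe sets. The test was checked on simulated data, with an outcome required only for untied values some way from the cutoff. That check does not vouch for ties or for signals close to the cutoff. The genes, companion lists and tests were chosen with earlier results of these data known. Named are every transport gene, the 2 highest and the lowest gene of each companion list, the broadly used relatives and some transcription factors. Items of this rule without values in the text are not reported here. Other named markers were chosen after their values were seen. Of 138 companion genes, 16 had no probe set of their own here. The alternatives varied the cutoff, the probe set, the spread of ties, the filter and the arrays. The number of arrays limits the precision.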

Additional observations from a re-analysis of the deposited data

How the results depend on the processing

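The cutoff decided most calls, since many signals lie close to background. At the 99th percentile of the receptors 5 transport genes, 52 companion genes and 7193 genes in all were called. A cutoff 1 log2 unit higher left 4, 39 and 5647. The most lenient cutoff, the 30th percentile over the whole array, gave 25 transport genes, where it called 75.3% of all genes. Leaving out an array gave 11 to 14 transport genes, 71 to 80 companion genes and 10355 to 11003 genes in all. Without array 3, limma gave all genes one spread, so that fit does not weigh each gene's own spread. An alternative chosen after seeing the data, a value above the cutoff on every array with no fit, gave the same 14, where it called 57.7% of all genes. Each called transport gene was above the cutoff on every array and each other one on none. This alternative therefore adds no check of the 14 calls. Lrp2, Atp1b1 and Hsd11b2 kept their call in all 12 alternatives, and 10 genes had no call in any of them. The other alternatives kept these counts within 1.5 times of those reported.

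Mean distances from the cutoff that turned negative at the 99th percentile were -0.32 for Slc34a1 and for Scnn1g, -0.29 for Slc12a3, -0.52 for Kcnj10, -0.60 for Fxyd2, -0.09 for Aqp2, -0.20 for Avpr2 and -0.49 for Slc4a1. At the cutoff 1 log2 unit higher they were -0.65 for Slc34a1 and Scnn1g, -0.30 for Slc22a8, -0.62 for Slc12a3, -0.85 for Kcnj10, -0.93 for Fxyd2, -0.42 for Aqp2, -0.12 for Aqp3, -0.53 for Avpr2 and -0.82 for Slc4a1. These follow from the higher cutoffs. With olfactory receptors alone Fxyd2 lay at -0.01, and with the lowest probe set of a gene Dab2 lay at -2.32. No paired analysis was possible because the series has a single group.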
